A study of Bos taurus with 6 samples.

Results

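The genes described here are 8 targets of SMAD signalling, ID1, ID2, ID3, SMAD6, SMAD7, SKIL, BAMBI and TGFBI, chosen by name from the 23704 genes quantified in isolated bovine primordial follicles (PMF). A PMF is an oocyte with a single layer of flat pre-granulosa cells, and each library was made from a pool of such follicles. The tested libraries are 3 pools that spent 16 h in culture (T16), and they were set against 3 pools retrieved after collection (T0). Per the methods of the study, ovaries came from Holstein Friesian dairy cows in the second year of life, follicles were isolated mechanically without enzymes, and the uncultured PMF had an hour of recovery in medium with insulin, transferrin, selenium and FSH, so T0 follows isolation and that hour. Those methods also say that follicles of many animals, gathered over repeated collections, were combined into biological replicates. The sources used here do not describe the culture medium, nor do they say which animals went into which pool, and the p-values below measure the spread between pools.

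Ligands of the TGF-beta family bind pairs of type I and type II receptors, which phosphorylate SMAD proteins. TGF-beta and activin signal mainly through SMAD2 and SMAD3, and BMP and AMH through SMAD1, SMAD5 and SMAD9, in each case with SMAD4. In the ovary, AMH restrains recruitment of primordial follicles in mice, while the oocyte factors GDF9 and BMP15 and the BMP of the surrounding cells act on granulosa cells. ID1, ID2 and ID3 are classical direct targets of BMP signalling, and their products bind E-proteins and keep them off DNA. SMAD7, SKIL and TGFBI respond to TGF-beta or activin. SMAD6 and SMAD7 block the pathway as inhibitory SMADs, SKIL as a nuclear co-repressor (SnoN) and BAMBI as a receptor-like protein without a kinase domain, while TGFBI is a secreted matrix protein. Several of these genes also answer to other signals, so their RNA is not a direct measure of SMAD activity.

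The libraries held from 25761986 to 36703016 estimated counts at T16 and from 22174653 to 30212698 at T0. Transcripts that could be named held 89.1% to 90.3% of these counts. The oocyte list, with all 8 markers above 0 in each library, summed to 33.1 to 1514 TPM (a level corrected for transcript length and for library depth) at T16 and 334 to 2262 TPM at T0. T16 replicate 2 had the lowest sum and T0 replicate 1 the second lowest. The pre-granulosa markers FOXL2 and WNT6 were above 0 in each library, though WNT6 had only 1 estimated count in T16 replicate 1. In bulk samples, fewer cells of a type and less RNA per cell cannot be told apart.

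In PMF after 16 h of culture, the mean of each ID gene was under that of T0, and so were the means of SMAD6, SMAD7 and BAMBI, whereas those of SKIL and TGFBI were above it. All 8 genes passed the filter on low counts. None was called by edgeR (quasi-likelihood test, Benjamini-Hochberg adjustment over 14639 genes, threshold 0.05), at which 0.0342% of the genes tested were called higher and 0.00683% lower at T16. Their adjusted p-values in edgeR ran from 0.147 for BAMBI to 0.765 for TGFBI. At an unadjusted p under 0.05, edgeR gave 3 of the 8 genes lower (BAMBI, ID3 and SMAD6) and 0 higher, beside 5.14% of all genes lower and 8.61% higher. DESeq2 called 1 of the 8, BAMBI, lower, where it called 3.04% of the genes lower and 4.17% higher. The median log2 fold change of T16 over T0 was -1.59 over the 8 genes and -0.08 over all genes tested.

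**Figure D1:**
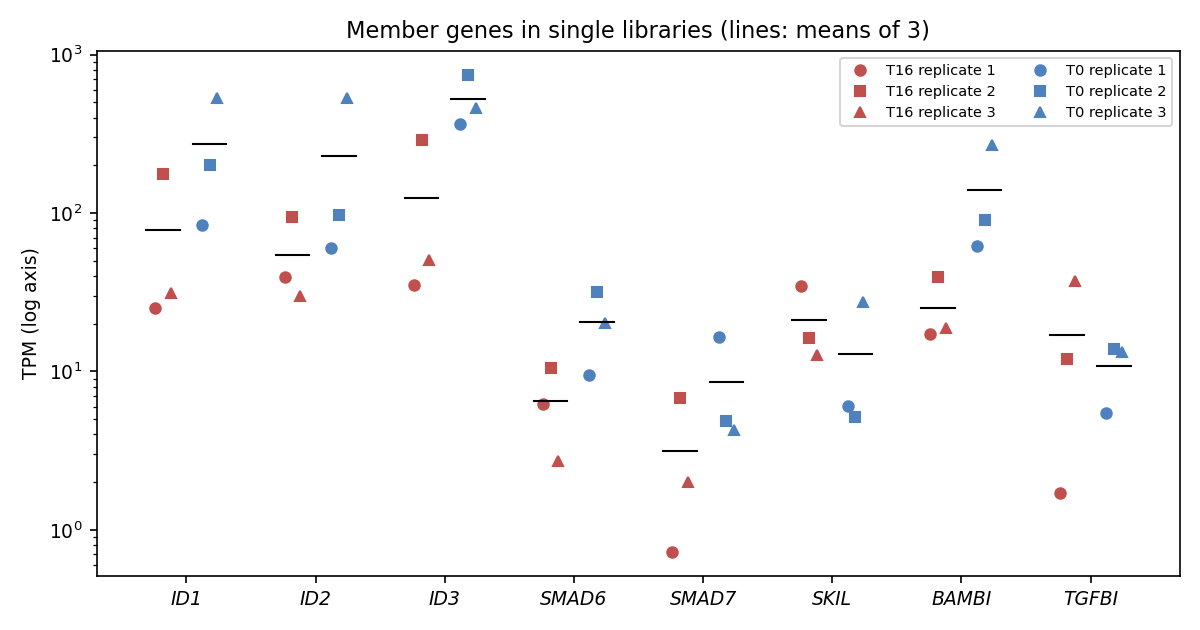
TPM (log axis) of the 8 genes in each T16 library (red, left of each pair) and each T0 library (blue, right); symbols mark the replicate and black lines the mean of 3 libraries. ID3 and BAMBI are the genes with every T16 point below every T0 point, and T16 replicate 2 (red square) is the highest T16 library for ID1, ID2, ID3, SMAD6, SMAD7 and BAMBI.

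ID3 was the most abundant of the 8 genes at both times. It had 34.9, 289 and 50.7 TPM in T16 replicates 1, 2 and 3, against 367, 748 and 458 TPM in T0 replicates 1, 2 and 3. Every T16 library was below every T0 library, and T16 replicate 2 was much closer to T0 than the other T16 libraries were. The mean was 125 TPM (SD 142, n = 3) at T16 and 524 TPM (SD 199, n = 3) at T0, and the log2 fold change was -1.98 (SE 0.78, 95% interval -3.82 to -0.14, edgeR adjusted p = 0.320). Without T16 replicate 2 the log2 fold change was -3.39 (edgeR adjusted p = 0.0805), and with each other library left out in turn it was between -2.15 and -1.62.

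ID1 had 25.1, 176 and 31.2 TPM in T16 replicates 1, 2 and 3, against 83.9, 201 and 529 TPM in T0 replicates 1, 2 and 3. The groups overlapped, because T16 replicate 2 lay above T0 replicate 1. Its log2 fold change was -1.67 (SE 0.89, 95% interval -3.75 to 0.41, edgeR adjusted p = 0.474). A single library set much of the size, since the value was -0.86 without T0 replicate 3 and -3.01 without T16 replicate 2.

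ID2 had 39.7, 94.4 and 29.9 TPM in T16 replicates 1, 2 and 3, against 60.4, 97.7 and 530.2 TPM in T0 replicates 1, 2 and 3. T0 replicate 3 stood far above the other 5 libraries, and T16 replicate 2 lay within the range of T0. The log2 fold change was -1.92 (SE 0.82, 95% interval -3.85 to 0.02, edgeR adjusted p = 0.369), but it was -0.52 (edgeR adjusted p = 0.872) without T0 replicate 3. Leaving out the same library gave ID3 -2.15 (edgeR adjusted p = 0.509).

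The composition of the ID transcripts differed between pools as well as their amount. ID3 made up 35.04%, 51.6% and 45.3% of the summed TPM of the 3 ID genes in T16 replicates 1, 2 and 3, against 71.8%, 71.5% and 30.2% in T0 replicates 1, 2 and 3. In T0 replicate 3 the 3 genes were almost equal, with 34.9% for ID1 and 34.95% for ID2. ID4, the remaining gene of the family, was less abundant than the others in each library, with 8.19, 23.9 and 7.28 TPM in T16 replicates 1, 2 and 3, against 10.8, 21.4 and 27.1 TPM in T0 replicates 1, 2 and 3. Its groups overlapped (log2 fold change -0.47, SE 0.57, edgeR adjusted p = 0.792).

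Of the inhibitors of the pathway, BAMBI had the largest difference and SKIL lay in the opposite direction. BAMBI had 17.3, 39.6 and 18.7 TPM in T16 replicates 1, 2 and 3, against 62.2, 90.9 and 267 TPM in T0 replicates 1, 2 and 3. The highest T16 library was below the lowest T0 library. The mean was 25.2 TPM (SD 12.5, n = 3) at T16 and 140.1 TPM (SD 111, n = 3) at T0, a log2 fold change of -2.32 (SE 0.60, 95% interval -3.72 to -0.92, edgeR adjusted p = 0.147). DESeq2 gave -2.43 (SE 0.64, adjusted p = 0.00498). The log2 fold change stayed between -2.73 and -1.57 with any 1 library left out, the smaller value being without T0 replicate 3.

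SMAD6, which mainly inhibits BMP signalling, had 6.24, 10.5 and 2.71 TPM in T16 replicates 1, 2 and 3, against 9.47, 31.8 and 20.2 TPM in T0 replicates 1, 2 and 3. Only T16 replicate 2 reached into the range of T0, where it was above replicate 1. The log2 fold change was -1.51 (SE 0.63, 95% interval -3.00 to -0.03, edgeR adjusted p = 0.351). ID3 and BAMBI, with no overlap in the lower direction, are 2 of the 8 genes, where 10.6% of all genes tested had no overlap in that direction on the log2 CPM scale.

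SMAD7, which inhibits both branches, was the least abundant of the 8 genes at both times. It had 0.726, 6.76 and 1.99 TPM in T16 replicates 1, 2 and 3, from 32, 262 and 131 counts, against 16.5, 4.87 and 4.25 TPM in T0 replicates 1, 2 and 3, from 708, 254 and 166 counts. The groups overlapped, and T0 replicate 1 was the only T0 library above T16 replicate 2. Its log2 fold change of -1.43 (SE 1.01, 95% interval -3.79 to 0.93, edgeR adjusted p = 0.615) was -0.34 without T0 replicate 1 and -2.49 without T16 replicate 2.

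SKIL had 34.4, 16.2 and 12.7 TPM in T16 replicates 1, 2 and 3, against 6.04, 5.13 and 27.4 TPM in T0 replicates 1, 2 and 3. Each T16 library exceeded T0 replicates 1 and 2, but T0 replicate 3 was above all but T16 replicate 1. The log2 fold change was 0.85 (SE 0.70, 95% interval -0.81 to 2.50, edgeR adjusted p = 0.681). It was 1.93 (edgeR adjusted p = 0.354) without T0 replicate 3 and 0.15 (edgeR adjusted p = 0.943) without T16 replicate 1.

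TGFBI was the most variable of the 8 genes at T16, with 1.70, 12.1 and 37.1 TPM in replicates 1, 2 and 3, against 5.49, 13.8 and 13.3 TPM in T0 replicates 1, 2 and 3. Its highest T16 library was 21.8 times its lowest, while at T0 that ratio was 2.52. T16 replicate 3 was above each T0 library and T16 replicate 1 below each. The log2 fold change of 0.94 (SE 1.01, 95% interval -1.43 to 3.30, edgeR adjusted p = 0.765) had no stable sign, since it was -0.60 without T16 replicate 3. The stromal collagens COL1A1 and COL3A1 were also highest at T16 in replicate 3 (132 and 298 TPM). They were lowest in replicate 1 (4.68 and 0.743 TPM), and the stroma marker LUM followed the same order (389.8 and 0.0718 TPM). In TPM, the stroma markers DCN, PDGFRA and NR2F2 had their lowest T16 values in replicate 3 (120.5, 79.2 and 8.497 TPM). On the log2 CPM scale this held for PDGFRA alone. On that scale NR2F2 was highest at T16 in replicate 3 (4.77). DCN was nearly level and lowest in replicate 1 (7.52, against 7.54 in replicate 3). TCF21, the remaining marker of that list, was highest at T16 in replicate 2 in TPM and in replicate 3 in log2 CPM. The part of stroma in the TGFBI values was not tested.

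**Figure D2:**
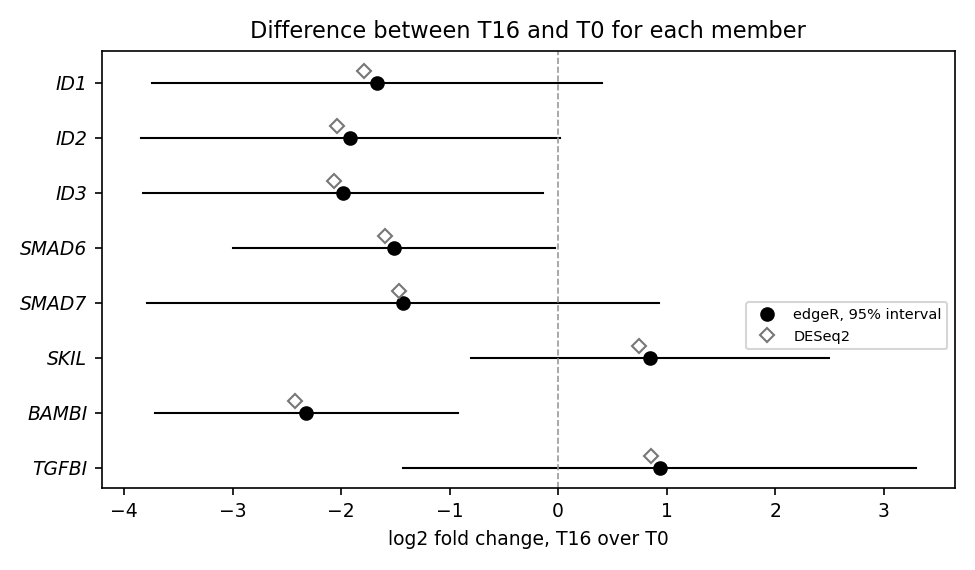
Log2 fold change of T16 over T0 for each of the 8 genes, with edgeR estimates and 95% intervals (black) and DESeq2 estimates (open diamonds). The edgeR intervals of ID3, SMAD6 and BAMBI lie below 0 before adjustment, and those of the other 5 genes include 0.

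The ID genes outweighed the TGF-beta targets in each of the 6 libraries, by less at T16 than at T0. ID1, ID2 and ID3 together had 99.7, 560 and 112 TPM in T16 replicates 1, 2 and 3, against 511, 1046 and 1517 TPM in T0 replicates 1, 2 and 3. SMAD7, SKIL and TGFBI together had 36.8, 34.97 and 51.8 TPM in T16 replicates 1, 2 and 3, against 28.0, 23.8 and 44.9 TPM in T0 replicates 1, 2 and 3. Both sums overlapped between the groups, and the second spanned the narrower range.

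The ratio of the ID sum to the sum of TGF-beta targets was 2.71, 16.0 and 2.16 in T16 replicates 1, 2 and 3, against 18.3, 43.9 and 33.8 in T0 replicates 1, 2 and 3. The ratios did not overlap, but T16 replicate 2 and T0 replicate 1 were close to each other. On the log2 CPM scale (counts scaled to library size, not corrected for length), where each gene has equal weight, the mean of the ID genes minus the mean of the TGF-beta targets was 1.32, 2.15 and 0.04 in T16 replicates 1, 2 and 3, against 2.13, 3.23 and 3.596 in T0 replicates 1, 2 and 3. On this scale T16 replicate 2 and T0 replicate 1 overlapped. The T16 mean was 1.17 (SD 1.06, n = 3) and the T0 mean 2.98 (SD 0.76, n = 3), a difference of -1.81. No test was made of a score over chosen genes.

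**Figure D3:**
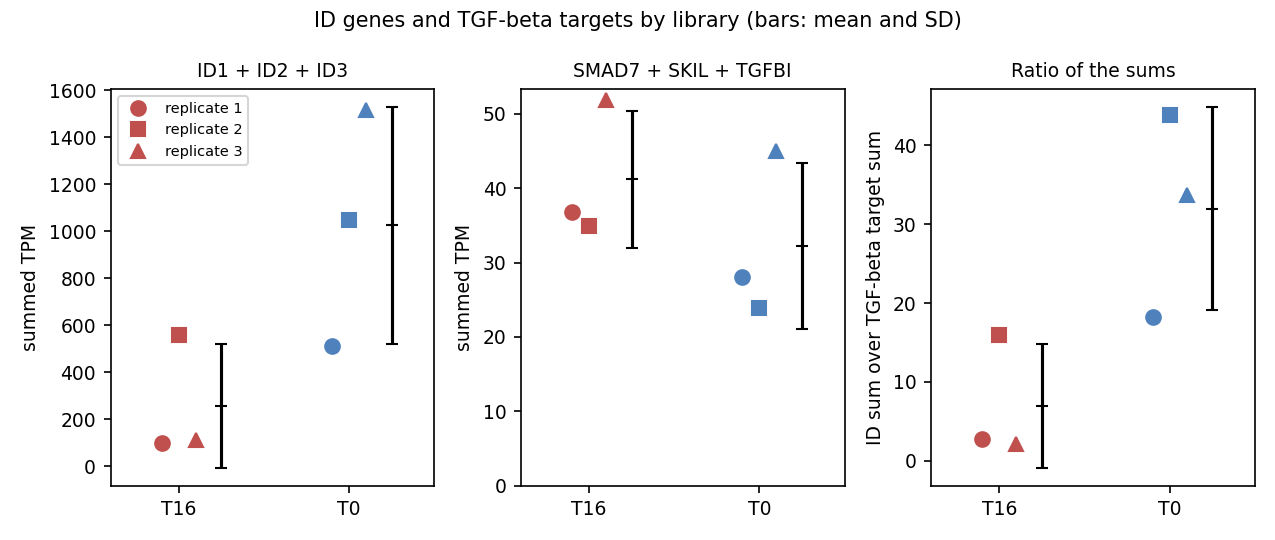
Summed TPM of ID1, ID2 and ID3, summed TPM of SMAD7, SKIL and TGFBI, and the ratio of the sums, in each T16 library (red, left) and T0 library (blue, right), with the mean and SD of 3 libraries beside them. The T16 ratios of 2.71, 16.0 and 2.16 all lie below the lowest T0 ratio of 18.3.

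The difference between the branches depended on which TGF-beta target was used. Against SKIL, ID1 was lower by a log2 difference of -2.99 and ID2 by -2.59 at T16 relative to T0, and ID3 by -3.64. Against TGFBI these values were -1.87, -1.47 and -2.52 for ID1, ID2 and ID3. Against SMAD7, which was itself lower on average, they were -0.32, 0.08 and -0.97.

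Within the genes that have several RefSeq transcripts, the reads were unevenly divided. The 4 SMAD7 transcripts included one of 1293 bases with 0 counts in each library, while the transcript of 2778 bases held 100% of the SMAD7 counts at T16 and 85.5% at T0. For SMAD6, the transcript of 2515 bases held 68.4% of the counts at T16 and 74.1% at T0, and the one of 3825 bases had 0 counts in each T0 library but 18.3 and 64.4 estimated counts in T16 replicates 1 and 2. SKIL was divided between a transcript of 3045 bases (45.1% of counts at T16 and 45.5% at T0) and 2 longer ones of 7194 and 7130 bases. These divisions are estimates from short reads that the transcripts share. The other 5 genes had 1 transcript each in the files.

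Upstream of these genes, no ligand was called by edgeR. INHBA and TGFB2 were higher and TGFB3 and BMP6 lower at T16 without overlap between the groups. Of 16 ligand genes 14 were tested. Without overlap, 2 of the 14 were higher and 2 lower, beside 13.2% and 10.6% of all genes tested. At an unadjusted edgeR p under 0.05, 2 were higher and 1 lower, beside 8.61% and 5.14% of all genes. The median log2 fold change of the ligands was -0.02. INHBA, the subunit of activin A, had 89.8, 58.7 and 68.1 TPM in T16 replicates 1, 2 and 3, against 20.2, 14.9 and 12.5 TPM in T0 replicates 1, 2 and 3. Each T16 library was above each T0 library (log2 fold change 2.26, SE 0.41, edgeR adjusted p = 0.0921, DESeq2 adjusted p = 2.87e-05).

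TGFB3 had 0.677, 2.64 and 1.42 TPM in T16 replicates 1, 2 and 3, against 9.52, 20.9 and 12.1 TPM in T0 replicates 1, 2 and 3, without overlap. Its log2 fold change was -3.02 (SE 0.71, edgeR adjusted p = 0.132, DESeq2 adjusted p = 0.00039). TGFB2 lay the other way, with 11.3, 5.96 and 10.9 TPM in T16 replicates 1, 2 and 3, against 1.17, 2.49 and 0.029 TPM in T0 replicates 1, 2 and 3 (log2 fold change 3.16, SE 1.19, edgeR adjusted p = 0.296); the lowest T0 library had 2 counts. BMP6, another ligand of the BMP class, had 17.3, 4.71 and 13.3 TPM in T16 replicates 1, 2 and 3, against 33.7, 22.0 and 23.8 TPM in T0 replicates 1, 2 and 3, without overlap (log2 fold change -1.08, SE 0.57, edgeR adjusted p = 0.473, DESeq2 adjusted p = 0.349). BMP2, the most abundant ligand of the BMP class apart from the oocyte factors, had 65.1, 136 and 41.3 TPM in T16 replicates 1, 2 and 3, against 116, 56.5 and 52.4 TPM in T0 replicates 1, 2 and 3, with overlap (log2 fold change 0.12, SE 0.55, edgeR adjusted p = 0.955). BMP6 and BMP2 are named after their values were seen.

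Of 16 receptor and co-receptor genes, 15 were tested and none was called by edgeR, with a median of -0.41. The unadjusted p was under 0.05 for 3 higher and 2 lower genes, beside 8.61% and 5.14% of all genes. Without overlap on log2 CPM, 4 were higher and 3 lower, beside 13.2% and 10.6% of all genes tested. The higher ones were TGFBR1, TGFBR2, ACVR1 and RGMB, and the lower ones ACVRL1, BMPR1B and BMPR2. BMPR1B, a type I receptor for BMP, had a log2 fold change of -1.22 (SE 0.47, edgeR adjusted p = 0.303). TGFBR2, the type II receptor of TGF-beta, had 37.6, 20.9 and 37.7 TPM in T16 replicates 1, 2 and 3, against 17.1, 6.68 and 7.32 TPM in T0 replicates 1, 2 and 3 without overlap (log2 fold change 1.70, SE 0.56, edgeR adjusted p = 0.238). TGFBR1, the type I receptor, had 133, 55.9 and 43.9 TPM in T16 replicates 1, 2 and 3, against 33.6, 28.9 and 44.6 TPM in T0 replicates 1, 2 and 3. Its TPM overlapped while its log2 CPM did not (log2 fold change 1.18, SE 0.43, edgeR adjusted p = 0.281). ACVRL1, a type I receptor for BMP9 and BMP10 known from endothelium, had 6, 0 and 8 counts in T16 replicates 1, 2 and 3, against 22, 151 and 88 counts in T0 replicates 1, 2 and 3 (log2 fold change -4.18, SE 1.46, edgeR adjusted p = 0.263). DESeq2 called ACVRL1 lower (adjusted p = 0.0429).

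None of the 6 SMAD transducers tested was called by edgeR (median 0.59). An unadjusted p under 0.05 was found for 1 higher and 0 lower, beside 8.61% and 5.14% of all genes. SMAD3, a transducer of TGF-beta and activin, had the lowest p of the 6. It had 126, 72.9 and 116 TPM in T16 replicates 1, 2 and 3, against 34.9, 49.4 and 38.5 TPM in T0 replicates 1, 2 and 3, with no overlap (log2 fold change 1.495, SE 0.36, edgeR adjusted p = 0.133, DESeq2 adjusted p = 0.0143). SMAD9, a transducer of BMP, had 8.22, 6.65 and 1.35 TPM in T16 replicates 1, 2 and 3, against 7.02, 10.8 and 16.8 TPM in T0 replicates 1, 2 and 3. Here too the TPM overlapped but the log2 CPM did not (log2 fold change -1.06, SE 0.63, edgeR adjusted p = 0.526). SMAD4, shared by both branches, had a log2 fold change of 0.53 (SE 0.33, edgeR adjusted p = 0.547).

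Of 14 extracellular antagonists and latency proteins, 13 were tested and none was called by edgeR. Before adjustment, 1 was higher and 3 lower at a p under 0.05, beside 8.61% and 5.14% of all genes. The median log2 fold change of the 13 was -0.99, and 11 of the 13 had a value below 0, beside 53.4% of all genes tested. FST encodes follistatin, which binds activin. It had 259, 513 and 288 TPM in T16 replicates 1, 2 and 3, against 89.6, 90.0 and 24.4 TPM in T0 replicates 1, 2 and 3, with no overlap (log2 fold change 2.46, SE 0.60, edgeR adjusted p = 0.140, DESeq2 adjusted p = 0.00226). CHRD, which encodes the BMP antagonist chordin, had 0 counts in the T16 libraries and 14, 98 and 155 counts in T0 replicates 1, 2 and 3. Taken over the groups, it was at least 102-fold lower at T16, against a floor of 3 counts that covers counting error only (edgeR adjusted p = 0.131, DESeq2 adjusted p = 0.000398). The bound was at least 59.3-fold without T0 replicate 3 and at least 60.9-fold without T16 replicate 3. LTBP3, a latent TGF-beta binding protein, had 4.74, 0.797 and 1.36 TPM in T16 replicates 1, 2 and 3, against 11.2, 34.5 and 13.9 TPM in T0 replicates 1, 2 and 3 (log2 fold change -3.05, SE 0.79, edgeR adjusted p = 0.147, DESeq2 adjusted p = 0.00232). LTBP4, of the same family and named after its values were seen, had 0.553, 0.321 and 0.313 TPM in T16 replicates 1, 2 and 3, against 1.38, 4.06 and 1.99 TPM in T0 replicates 1, 2 and 3, without overlap (log2 fold change -2.53, SE 0.78, edgeR adjusted p = 0.209, DESeq2 adjusted p = 0.0114). The groups of LTBP1 and LTBP2, of that family and also named afterwards, overlapped. Their log2 fold changes were -0.29 (SE 0.51, edgeR adjusted p = 0.869) and -3.14 (SE 2.48, edgeR adjusted p = 0.661). LTBP1 was the most abundant of these LTBP genes, with means of 19.0 TPM at T16 and 23.8 TPM at T0.

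The 9 intracellular repressors had a median of 0.54, with none called by edgeR. Among them 2 were higher and 0 lower at an unadjusted p under 0.05, beside 8.61% and 5.14% of all genes. SKI, the relative of SKIL, had 8.93, 10.5 and 7.31 TPM in T16 replicates 1, 2 and 3, against 3.23, 4.02 and 4.63 TPM in T0 replicates 1, 2 and 3. Unlike for SKIL, the groups of SKI did not overlap (log2 fold change 1.29, SE 0.39, edgeR adjusted p = 0.205, DESeq2 adjusted p = 0.024). TGIF2, a nuclear repressor, and STRAP, a receptor-associated protein, had log2 fold changes of 0.87 (SE 0.37, edgeR adjusted p = 0.354) and 0.83 (SE 0.37, edgeR adjusted p = 0.384), without overlap.

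**Figure D4:**
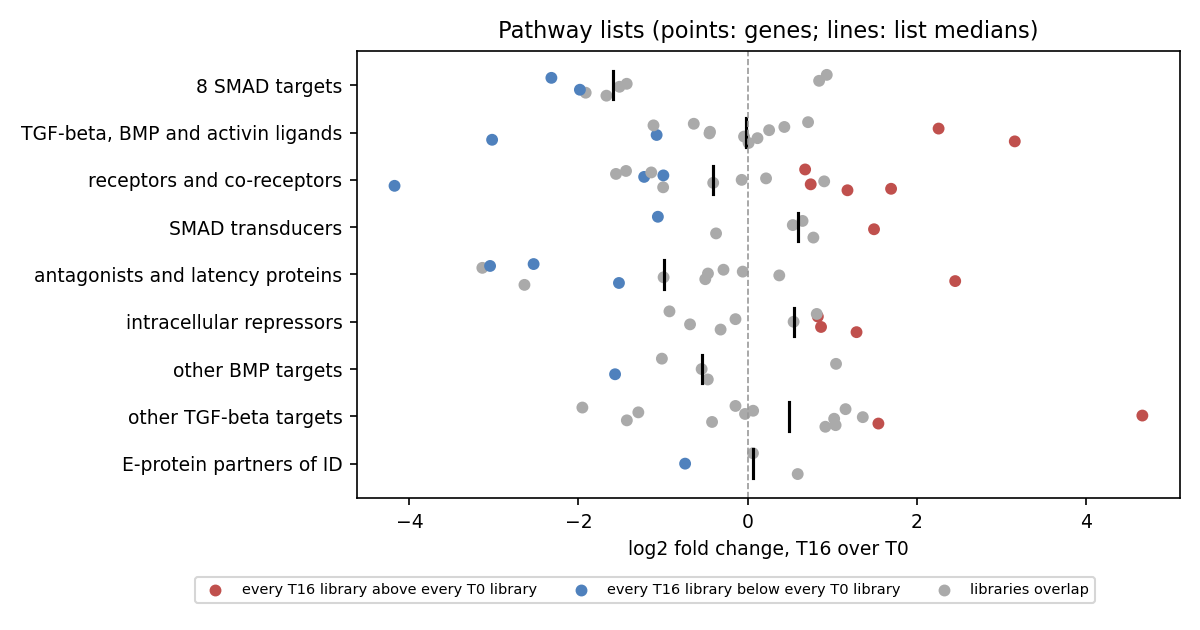
Log2 fold change of T16 over T0 for each tested gene of the pathway lists (points) with the list medians (lines). Red points have every T16 library above every T0 library, blue points the reverse, on the log2 CPM scale, and grey points overlap; CHRD, at 0 counts at T16, is left out as a point but counts in its list's median. The medians run from -1.59 for the 8 SMAD targets to 0.59 for the SMAD transducers.

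Other targets of the 2 branches did not move as a block. Of 14 other TGF-beta targets, none was called by edgeR and the median was 0.49. Their counts at an unadjusted p under 0.05 were 2 higher and 0 lower, beside 8.61% and 5.14% of all genes. CDKN2B, an inhibitor of the cell cycle, had 65.7, 35.5 and 15.6 TPM in T16 replicates 1, 2 and 3, against 1.04, 2.66 and 1.12 TPM in T0 replicates 1, 2 and 3. Its lowest T16 library was well above its highest T0 library (log2 fold change 4.67, SE 0.67, edgeR adjusted p = 0.0872, DESeq2 adjusted p = 2.41e-10). KLF10, an early response gene of TGF-beta, had 249, 110 and 79.0 TPM in T16 replicates 1, 2 and 3, against 57.4, 23.8 and 73.7 TPM in T0 replicates 1, 2 and 3 (log2 fold change 1.55, SE 0.56, edgeR adjusted p = 0.275). IGFBP3 had a log2 fold change of 1.16 (SE 0.55, edgeR adjusted p = 0.412).

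The 5 other BMP targets had a median of -0.54, with 0 called by edgeR. DESeq2 called 0, beside 4.17% of all genes higher and 3.04% lower. At an unadjusted edgeR p under 0.05 there were 0, beside 8.61% higher and 5.14% lower. Without overlap, 1 of the 5 was lower (ATOH8) and 0 higher, beside 10.6% and 13.2% of all genes tested. HEY1, a transcriptional repressor, had 21.0, 4.29 and 17.0 TPM in T16 replicates 1, 2 and 3, against 6.82, 32.7 and 59.8 TPM in T0 replicates 1, 2 and 3. Unlike the ID genes, HEY1 was lowest at T16 in replicate 2 (log2 fold change -1.01, SE 0.87, edgeR adjusted p = 0.690). ATOH8, a transcription factor, had 0, 293 and 303 counts in T16 replicates 1, 2 and 3, against 460, 1107 and 331 counts in T0 replicates 1, 2 and 3 (log2 fold change -1.57, SE 1.497, edgeR adjusted p = 0.730). Of the E-proteins that ID proteins bind, TCF4 had 26.5, 22.1 and 25.1 TPM in T16 replicates 1, 2 and 3, against 50.01, 46.6 and 31.9 TPM in T0 replicates 1, 2 and 3, with no overlap (log2 fold change -0.74, SE 0.33, edgeR adjusted p = 0.382). The values of TCF3 and TCF12 were 0.59 (SE 0.40, edgeR adjusted p = 0.596) and 0.06 (SE 0.44, edgeR adjusted p = 0.971).

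Levels of cell type markers were measured beside these genes. The 7 smooth muscle and pericyte markers summed to 23.4 to 105 TPM at T16 and 112 to 435 TPM at T0, without overlap, and 4 of them (ACTA2, MYH11, RGS5 and NOTCH3) were at 0 in at least 1 library. The 7 endothelial markers summed to 15.0 to 39.0 TPM at T16 and 22.5 to 392 TPM at T0, of which CLDN5 alone held 382 TPM in T0 replicate 1, while PECAM1, CDH5, KDR and EMCN were at 0 in at least 1 library. The 6 granulosa markers summed to 477 to 7886 TPM at T16 and 695 to 9200 TPM at T0, mostly KRT8 and KRT18, and overlapped.

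Of the 6 granulosa markers, FOXL2 and WNT6 had no overlap, with every T16 library below every T0 library, beside 10.6% of all genes tested. The groups of KRT8, KRT18, GATA4 and AMH overlapped, with log2 fold changes of -0.33, 0.22, -0.26 and -0.64. Their edgeR adjusted p-values were 0.945, 0.958, 0.908 and 0.868. FOXL2, a transcription factor of granulosa cells, had 3.37, 20.1 and 15.1 TPM in T16 replicates 1, 2 and 3, against 38.5, 141 and 37.3 TPM in T0 replicates 1, 2 and 3 (log2 fold change -2.30, SE 0.84, edgeR adjusted p = 0.280, DESeq2 adjusted p = 0.0505). WNT6, a secreted signalling protein, had 0.0547, 15.1 and 1.54 TPM in T16 replicates 1, 2 and 3, against 39.0, 155 and 74.6 TPM in T0 replicates 1, 2 and 3 (log2 fold change -3.91, SE 1.496, edgeR adjusted p = 0.306, DESeq2 adjusted p = 0.025). Both were highest at T16 in replicate 2, as the ID genes were, and at T0 in replicate 2. The part of these differences in the values of the 8 genes was not tested.

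T16 replicate 2, with the highest ID levels of its group, had the lowest oocyte sum (33.1 TPM) of the T16 libraries. It also had their highest granulosa sum (7886 TPM). At T0, replicate 3 had the highest ID sum with the highest oocyte sum (2262 TPM) and the lowest granulosa sum (695 TPM). The stroma list summed to 281 to 1030 TPM at T16 and 823 to 964 TPM at T0, the 5 immune markers to 2.74 to 52.9 TPM and 8.31 to 44.2 TPM, and the surface epithelium list to 119 to 285 TPM and 220.0 to 246 TPM. All 4 surface epithelium markers were above 0 in each library, and 4 of the 5 immune markers were at 0 in at least 1. The part of these other markers in the values of the 8 genes was not tested either.

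**Figure D5:**
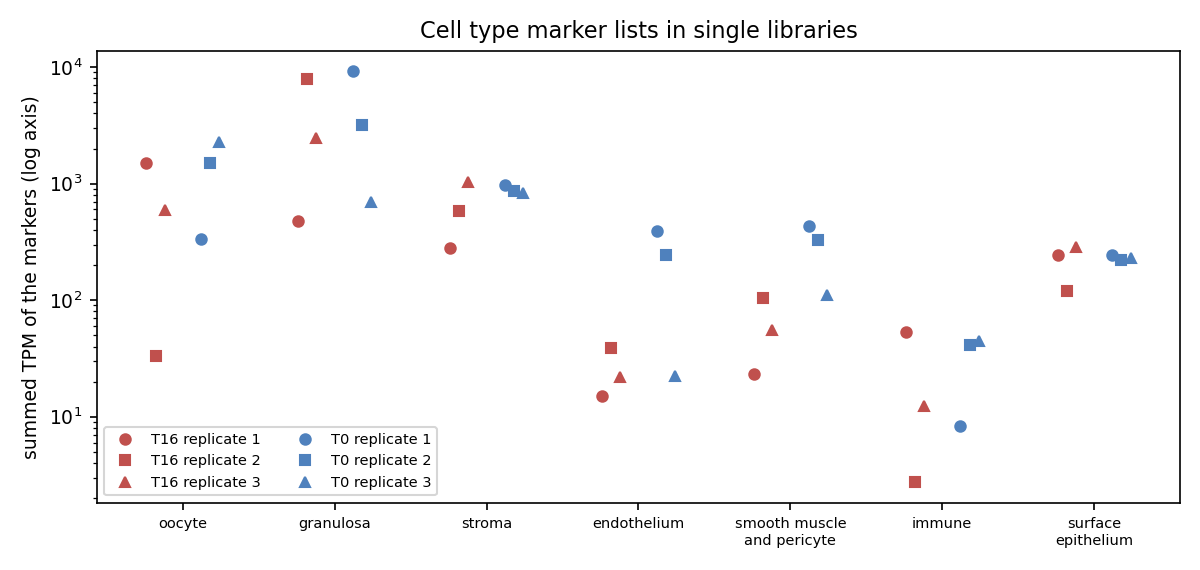
Summed TPM (log axis) of 7 cell type marker lists in each T16 library (red, left) and T0 library (blue, right); symbols mark the replicate. The smooth muscle and pericyte sums do not overlap (23.4 to 105 TPM at T16 and 112 to 435 TPM at T0), and T16 replicate 2 has the lowest oocyte sum, at 33.1 TPM.

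The genes nearest in pattern to the ID genes were found by the root mean square difference of centred log2 CPM over the 6 libraries, among 10250 genes with a mean log2 CPM of at least 3. The nearest 5 were LOC282255, XPR1, INSL3, KIF3C and PMVK, with differences of 0.29, 0.39, 0.48, 0.49 and 0.49, where the median gene had 1.52. INSL3, a peptide hormone of the gonads, had 8.75, 33.7 and 20.0 TPM in T16 replicates 1, 2 and 3, against 38.6, 108 and 159 TPM in T0 replicates 1, 2 and 3. The mean of SMAD7, SKIL and TGFBI was nearly level apart from T16 replicate 1, and PTMA, MDP1, ZNF653, ANKS3 and RNASEH2C lay nearest to it (0.15, 0.17, 0.19, 0.19 and 0.21, median gene 0.87). That mean joins genes of unlike patterns and describes none of them.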

How the data were processed

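Pools of PMF were sequenced in 3 T16 and 3 T0 libraries made from total RNA with SMART-Seq v4 cDNA. The authors ran Trim Galore and fastp before quantification in Salmon against the transcriptome of ARS-UCD1.3. They deposited estimated counts and TPM for each RefSeq transcript, with its length and effective length. Of 76123 transcripts, 50205 (66.0%) were named by accession, ignoring the version, in RefSeq's list of genes for ARS-UCD2.0. Its coordinates were not used. The others, with 9.74% to 10.9% of a library's counts, were left out. Both values were summed to genes, and counts were rounded.

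T16 was compared with T0 in edgeR 4.0.16 (R 4.3.3; TMM, quasi-likelihood test). A gene entered when 3 or more libraries held 10 or more of its counts, which left 14639 genes. Overlap of the groups was judged on log2 CPM. Standard errors and intervals were derived from the F statistic of edgeR. Log2 CPM used a prior count of 2. DESeq2 1.42.0, the tool of the study, was the alternative tool. The procedure was tested on simulated data. Other alternatives were DESeq2 size factors, other count filters, length offsets, unmatched transcripts kept, the replicate number as a block, TPM rescaled to matched transcripts, and each library left out; for CHRD, leaving out a library was chosen after seeing the data.

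The 8 genes, the lists and the tests were chosen with earlier results of these data known, so no set test or p over the lists was made. The text names the 8 genes, any pathway gene past the threshold in edgeR, up to 3 of each list with the smallest edgeR p, and the 5 genes nearest to each mean pattern. Marker genes, BMP2, BMP6, LTBP1, LTBP2, LTBP4, ACVR1, RGMB, BMPR1B and BMPR2 are named beside these.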

Additional observations from a re-analysis of the deposited data

How the results depend on the processing

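With 3 pools a group the intervals of single genes spanned several fold. The lowest counts of the 8 genes were those of SMAD7 (32) and TGFBI (73) in T16 replicate 1, and an effect of depth was not tested. Of 104 values (8 genes under 13 alternatives each), 101 kept their direction and their side of the threshold. BAMBI passed in DESeq2 alone (log2 fold change -2.43, adjusted p = 0.00498), so that DESeq2 called 1 of the 8 genes, and its adjusted p in edgeR was 0.113 to 0.488 with 1 library left out. TGFBI changed sign to -0.021 with the replicate block and to -0.60 without T16 replicate 3, and ran from -0.60 to 1.34 with 1 library left out. Over all genes, edgeR called 6 and DESeq2 1027; edgeR called 11 without the count filter, 0 with unmatched transcripts kept (2679 genes at an unadjusted p under 0.05), 0 with the replicate block (1385 genes) and 0 to 3 with 1 library left out, while none of the 8 genes was called in edgeR under any alternative. The cause was not tested. Same-numbered libraries showed no likeness: the correlations of their deviations from the group means, over 10250 genes, were -0.53, -0.13 and -0.07. No library correlated best with its own number. Pools also differed in cell type markers, so this check cannot exclude that same-numbered pools shared animals. The change in the ID mean minus the TGF-beta target mean (-1.81) ran from -2.30 to -1.25 with 1 library left out. Rescaling TPM to matched transcripts moved each group mean of the 8 genes by less than 1 SD.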
